A study of Mus musculus with 5 samples.

Results

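The deposited list of RAP1 binding regions holds 417 peaks in the last 1 Mb of the 19 mouse autosomes, of 29940 autosomal peaks and 30398 peaks in all. They were chosen by position alone: the midpoint of a peak had to lie within 1 Mb of the distal end of its chromosome in the mm9 assembly. Mouse autosomes carry the centromere near one end, so the distal end is the one far from the centromere, where the unique sequence of the chromosome gives way to the telomere. These peaks are called terminal peaks here. Distances run from the midpoint of a peak to the assembly end, and chromosome ends were known to the nearest kb only. The peak just inside the limit lies 4.99 kb past it on chromosome 16, with 30 positive reads, and the peak just outside lies under 1 kb short of it on chromosome 12, with 29 positive reads. Neither has a negative read.

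RAP1 is the most conserved member of shelterin, the protein complex that caps telomeres, and it reaches the TTAGGG repeats by binding TRF2. It has little affinity for DNA of its own, and it is also found at sites away from telomeres, where interrupted or short runs of the telomeric repeat occur. Subtelomeres, the stretches next to the repeats, often hold such degenerate repeats and segments shared between chromosomes. The labels give chromatin immunoprecipitation with a RAP1 antibody from mouse embryonic fibroblasts of mixed background, immortalised with SV40 large T and grown with puromycin. SV40 large T is a viral protein that inactivates p53 and the retinoblastoma protein. There are 2 wild-type libraries, 2 libraries from fibroblasts lacking Rap1, which the design names as the negative control, and 1 input without antibody whose genotype the labels do not give. All 5 libraries come from cells immortalised and grown alike, and the labels do not say which allele or which deletion the Rap1-deleted lines carry.

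The list pools the libraries into a positive read set, read here as wild type, and a negative read set, read here as Rap1-deleted. The sources used here do not say whether input reads entered the negative set, so ratios are given against that set as deposited. No library has a value of its own, so no difference below could be set against a spread between replicates, and whether RAP1 was lost in the deleted lines could not be checked. Negative reads were multiplied by 3.32, the factor that the deposited fold columns carry. A peak has reads counted over its whole length and reads counted in windows on each strand, and the ratio of positive to scaled negative strand-window reads is called the strand ratio. Strand windows were used because only 5 of the 417 terminal peaks (1.20%) have a negative read in the whole-peak column. Intervals are exact 95% intervals. Where no negative read was counted, 2 values are used: the ratio against a floor of 3 pooled negative reads, and the lower limit of the exact interval, which also carries the error of the positive reads and is the smaller one. They cover counting error only, because amplified copies are not independent molecules and because peaks sit close together. How deeply each library was sequenced is unknown.

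Terminal peaks were more frequent than the rest of the same autosomes gives. From the peak density of each autosome between its first listed peak and the last 1 Mb, 239.7 peaks were expected where 417 stood, a ratio of 1.74 (Poisson interval 1.58 to 1.92). The window makes up 0.79% of the listed autosomal span and holds 1.39% of its peaks. The autosomes were also divided into 1 Mb windows counted from the distal end, and the windows of equal number were summed over the 19 autosomes. Of the 57 such windows that all autosomes hold, the last 1 Mb had the most peaks. The other 56 windows held 189 to 336 peaks each, with a median of 259, and none reached 417. The neighbouring window, from 1 to 2 Mb, held 304.

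**Figure D1:**
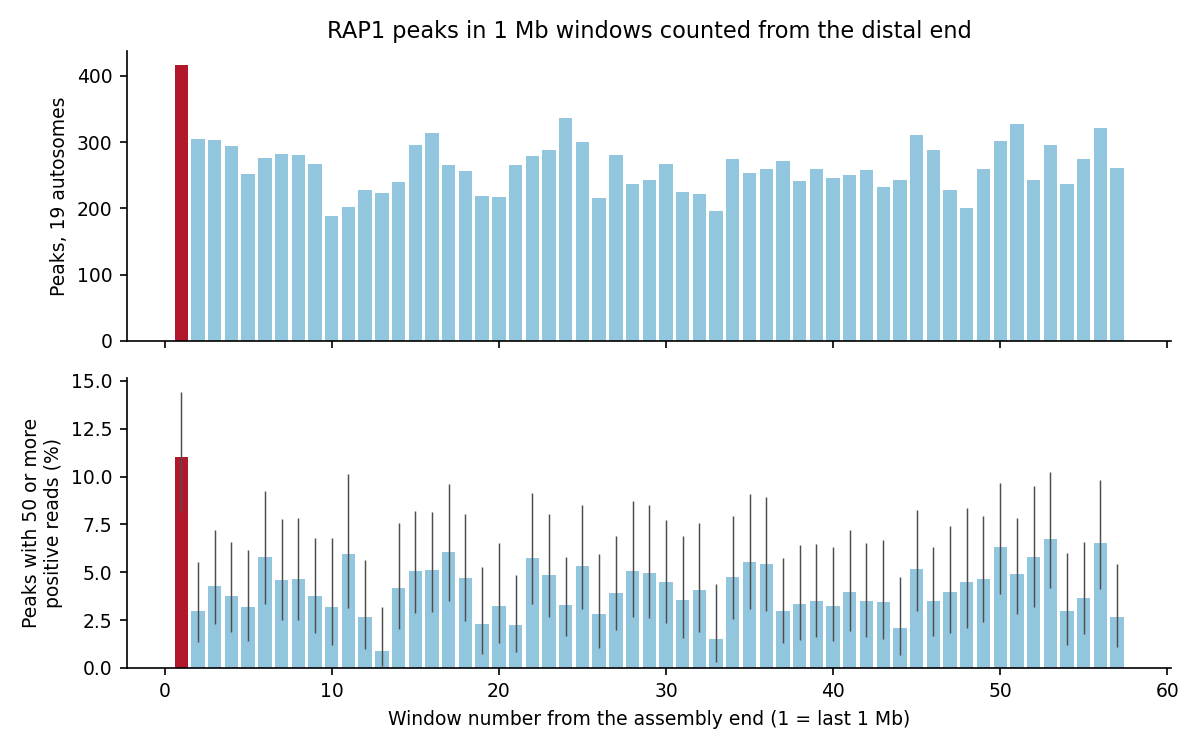
The upper panel plots the number of RAP1 peaks over 19 autosomes, and the lower panel the percentage of them with 50 or more positive reads (exact 95% intervals), in 57 windows of 1 Mb numbered from the distal assembly end. The last 1 Mb, in red, stands at 417 peaks and 11.0%, above the 189 to 336 peaks and 0.897% to 6.76% of the other 56 windows in blue.

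The single autosomes were not alike. A terminal window held from 5 peaks on chromosome 18 to 40 on chromosome 5, with a median of 23. In 14 of 19 autosomes the terminal density lay above that of the rest of the chromosome, and in 10 the whole Poisson interval of the ratio lay above 1. In 5 autosomes the terminal density was the lower one, and in 0 of them did the whole interval lie under 1.

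Chromosome 7 had 33 terminal peaks against 6.73 per Mb elsewhere, a ratio of 4.90 (3.37 to 6.88). It is otherwise a sparse chromosome in this list, and its last 1 Mb was the fullest of its 149 windows. On chromosome 5, 40 terminal peaks stood against 12.1 per Mb (3.29, 2.35 to 4.48), again the fullest of 149 windows. These were the only 2 autosomes whose last 1 Mb held more peaks than any other window.

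Chromosome 1 followed with 30 peaks and a ratio of 2.58 (1.74 to 3.68), exceeded by 5 of its other windows. Chromosome 15 had 39 peaks and a ratio of 2.49 (1.77 to 3.40), exceeded by 3 windows. Chromosome 4 had 25 peaks, at 2.39 (1.55 to 3.53). On chromosome 11, the most peak-dense autosome, 36 terminal peaks stood against 18.3 per Mb (1.97, 1.38 to 2.73). The intervals of these 4 autosomes overlap one another, so their order is not resolved.

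At the other extreme lay chromosomes 18 with 5 peaks (0.45, 0.15 to 1.05), 17 with 9 (0.63, 0.29 to 1.19), 14 with 8 (0.75, 0.32 to 1.48), 10 with 12 (0.79, 0.41 to 1.38) and 13 with 9 (0.83, 0.38 to 1.58). Each of these intervals spans 1. The 5 autosomes with most terminal peaks, chromosomes 5, 15, 11, 7 and 1, together held 178 of the 417 (42.7%). Leaving out any 1 autosome kept the summed ratio between 1.65 and 1.81.

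**Figure D2:**
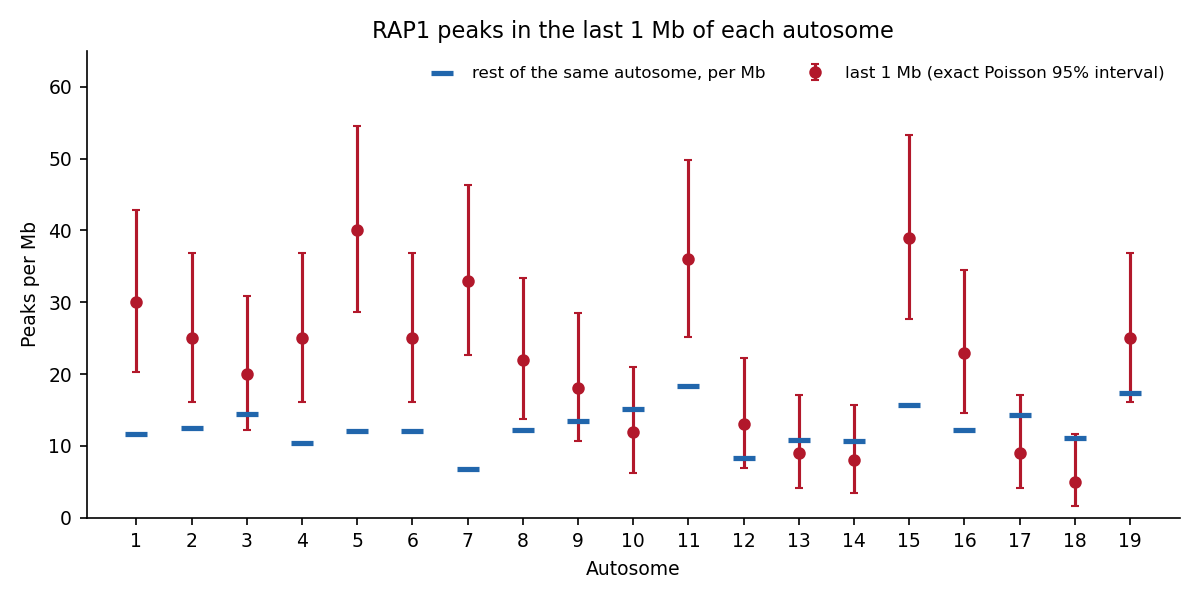
Red points give the number of RAP1 peaks in the last 1 Mb of each autosome, with exact Poisson 95% intervals, and blue dashes the peaks per Mb over the rest of the same autosome. Chromosomes 5, 15, 11 and 7 reach 33 to 40 terminal peaks, and chromosome 7 stands highest relative to its own blue dash, with 33 over 6.73.

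The names of the genes nearest these ends give a sense of place, although no peak was assigned to a gene, because neither the sequence nor the annotation of mm9 was used here. The RefSeq gene table of GRCm38, another assembly, was read for gene order only. In it, chromosome 7 ends with the protein-coding genes Ccnd1, the gene of cyclin D1, then Tpcn2, an endolysosomal cation channel, Smim38, Mrgprf and Mrgprd, a receptor of sensory neurons. Chromosome 5 ends with Pds5b, a cohesin regulator, Kl, the gene of klotho, Stard13, Vmn2r18, a vomeronasal receptor, and Rfc3, a subunit of the clamp loader of DNA replication. Chromosome 11 ends with B3gntl1, Metrnl, a secreted factor, Ptchd3 and Gm9631.

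Peaks were most frequent in the last 0.1 Mb, although not confined to it. In bins of 100 kb summed over the autosomes, the outermost bin held 61 peaks from 17 autosomes, against 24.0 expected from interior densities, a ratio of 2.54 (1.95 to 3.27). The next bin held 48 peaks (interval of the ratio 1.48 to 2.66). The bin from 400 to 500 kb was about as full, with 51 peaks (2.13, 1.58 to 2.80). The fewest lay between 800 and 900 kb, with 23 peaks (0.96, 0.61 to 1.44). The interval of the outermost bin overlaps those of the bins at 100 to 200 kb and 400 to 500 kb, so the number of peaks alone does not set it apart from them. Without the outermost 0.1 Mb, a choice made after the data were seen, the remaining 356 peaks still gave 1.65 times the interior density (1.48 to 1.83).

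**Figure D3:**
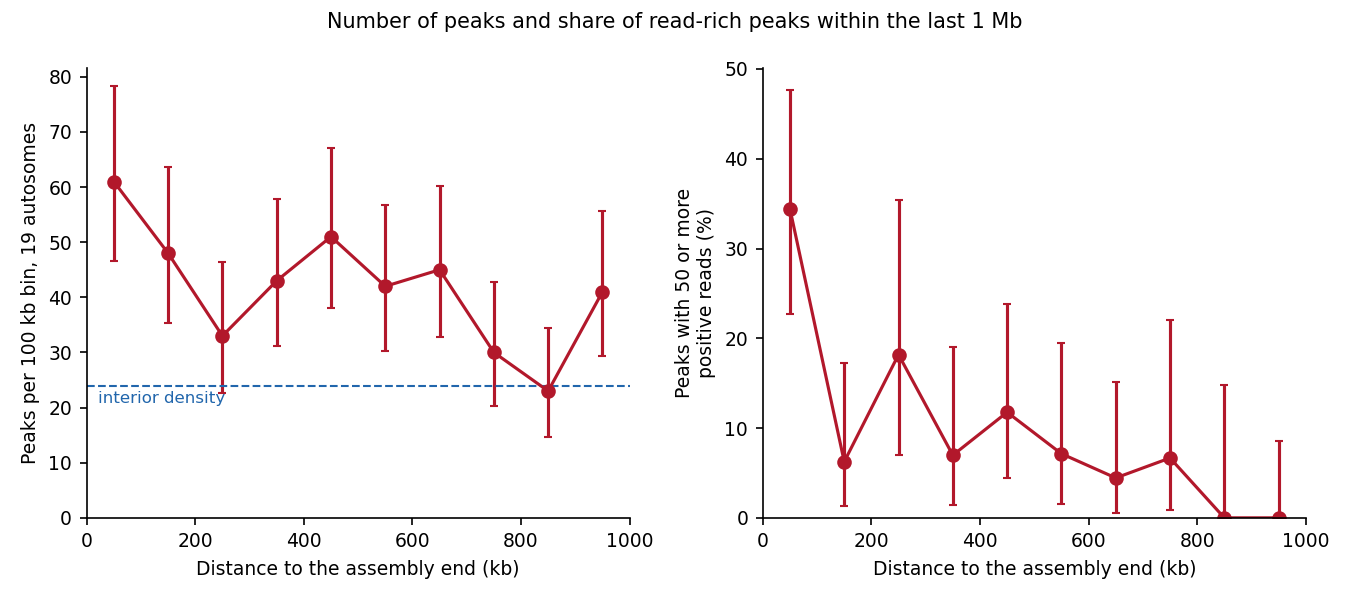
Both panels show bins of 100 kb by distance to the distal assembly end, over 19 autosomes. The left panel gives the number of RAP1 peaks with Poisson 95% intervals, from 61 in the outermost bin to 23 at 800 to 900 kb, with the interior density as a dashed line, and the right panel gives the percentage with 50 or more positive reads, from 34.4% in the outermost bin to 0 beyond 800 kb.

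A larger share of terminal peaks was read-rich, defined as 50 or more positive reads over the peak. The share was 46 of 417 (11.0%, 8.19 to 14.4), against a background of 4.25% of all autosomal peaks. In the other autosomal peaks it was 1225 of 29523 (4.15%, 3.92 to 4.38), so the intervals do not overlap. Autosomes differ in how many reads their peaks hold, and the other peaks of the same autosomes would give 17.6 read-rich peaks among 417 (4.23%). None of the other 56 windows of 1 Mb reached 11.0%. The share of 100 or more reads was 6 of 417 (1.44%, 0.530 to 3.11), against a background of 0.0835%, or 25 of 29940 autosomal peaks, the 6 included. The typical terminal peak was scarcely different: the median was 29 positive reads (interquartile range 24 to 38), against 28 (24 to 34) in the other peaks. Only 11 of 19 autosomes had a higher median in their terminal peaks, 7 had a lower one and 1 was equal.

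The share of read-rich peaks was highest close to the end. The last 0.1 Mb held 21 read-rich peaks of 61 (34.4%, 22.7 to 47.7) on 10 autosomes, and the remaining 0.9 Mb held 25 of 356 (7.02%, 4.60 to 10.2). In the last 0.1 Mb, 20 of 61 peaks had a negative read (32.8%, 21.3 to 46.0), against a background of 18.9%. In the remaining 0.9 Mb it was 81 of 356 (22.8%, 18.5 to 27.5). The strand ratio was 4.84 (4.16 to 5.66) in the last 0.1 Mb and 5.30 (4.89 to 5.75) in the remaining 0.9 Mb. The intervals overlap for both measures. By bin, the share with a negative read ran from 12.5% at 100 to 200 kb to 35.7% at 500 to 600 kb. Over all terminal peaks without negative reads the read-rich share was 7.59% (4.93 to 11.1), against 2.96% in such peaks elsewhere, a comparison added after the data were seen. The part of negative reads in the read-rich share of the last 0.1 Mb was not tested. The median in the last 0.1 Mb was 35 positive reads (interquartile range 28 to 59). Chromosome 7 gave 6 of the 21, chromosomes 5 and 11 gave 3 each, and chromosomes 2 and 19 gave 2 each. Without chromosome 7 the share was 15 of 50 (30.0%, 17.9 to 44.6), and without chromosomes 5, 7 and 11 it was 9 of 36 (25.0%, 12.1 to 42.2). The bin from 200 to 300 kb came next, with 6 of 33 (18.2%, 6.98 to 35.5), an interval that overlaps that of the last 0.1 Mb. Over the last 0.5 Mb the share was 16.5% (12.0 to 21.9). Farther in it was 3 of 42 (7.14%) at 500 to 600 kb, 2 of 45 (4.44%) at 600 to 700 kb and 2 of 30 (6.67%) at 700 to 800 kb. None of the 23 peaks from 800 to 900 kb was read-rich (interval up to 14.8%), nor any of the 41 from 900 to 1000 kb (up to 8.60%). Every bin beyond 500 kb had an interval that spans the 4.15% of the other autosomal peaks, as had the bins at 100 to 200 and 300 to 400 kb. The peaks of the last 0.1 Mb were also more often broad: 14 of 61 (23.0%, 13.2 to 35.5) were 120 bp or longer, against a background of 10.6%.

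**Figure D4:**
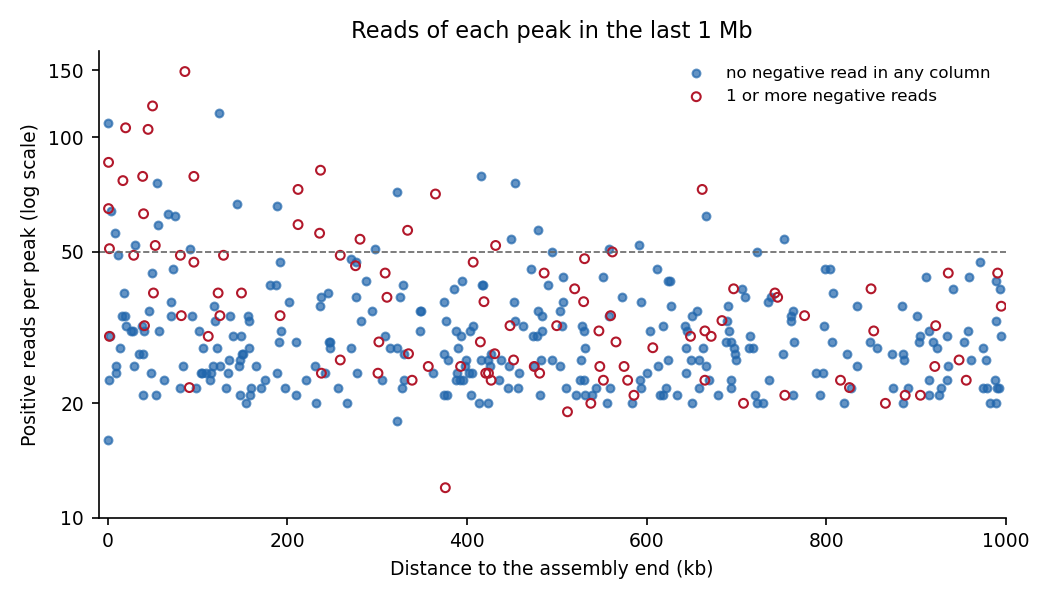
Each point is 1 of the 417 terminal RAP1 peaks, by distance to the distal assembly end and positive reads over the peak on a log scale, with blue for peaks without negative reads and red rings for the others. Of the 46 peaks at or above the dashed line of 50 reads, 21 lie within 100 kb of the end, and 5 of the 6 peaks with 100 or more reads lie there too.

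The 6 peaks with 100 or more reads, named after their values were seen, lie on 4 autosomes. Nearest the end is a 263 bp peak on chromosome 11 from 121843526 to 121843788, under 1 kb from the assembly end, with 109 positive and 0 negative reads. No negative read stands in its strand windows, and the strand ratio is 10.2 against the floor, with a lower limit of 8.18. Its strands were unequal, with 72 forward and 30 reverse reads, or 70.6% forward (60.7 to 79.2). Over all terminal peaks the forward share had an interquartile range of 45.0% to 54.5%, so this peak was more one-sided than most. It was not the only such peak. Forward and reverse reads were 25 and 86 in the chromosome 7 peak of 121 reads, and 99 and 39 in that of 149. They were closer in the others of 100 or more reads: 44 and 61 on chromosome 7, 58 and 48 on chromosome 10, and 59 and 52 on chromosome 17.

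On chromosome 10, the 30 bp peak from 129973377 to 129973406, 20 kb from the end, holds 106 positive and 5 negative reads, a strand ratio of 6.38 (2.65 to 20.1). A further 3 of the 6 lie on chromosome 7 between 45 and 86 kb from the end. The peak from 152479821 to 152479940 holds 105 positive reads and 3 negative strand reads (10.5, 3.51 to 51.9). The peak from 152475427 to 152475459 holds 121 positive reads and 11 negative strand reads (3.04, 1.63 to 6.26). The most read-rich terminal peak, from 152439141 to 152439172, has 149 positive and 9 negative reads, with 15 negative strand reads (2.77, 1.62 to 5.08). Its deposited rank is only 22199, with a false discovery rate of 0.0132 and a log2 fold of 2.52, the lowest of the terminal peaks. All 3 exceed the negative set by intervals wholly above 1, and the first of them by an interval above 2. The 38 bp peak on chromosome 17 from 95149357 to 95149394, 124 kb from the end, holds 116 positive reads and no negative read in any column, a strand ratio of 11.1 against the floor (lower limit 8.91). Chromosome 17 thus holds a peak of 100 or more reads although its terminal window is sparse. Of these 6 peaks, 4 are only 30 to 38 bp long, and whether their reads include stacks of amplified copies was not tested.

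The 10 best-ranked terminal peaks, by the deposited rank, lie on 7 autosomes and hold 50 to 121 positive reads, and 7 of them are within 100 kb of the end. They include 4 of those just described, a chromosome 11 peak described with the outermost peaks, and a 55 bp peak on chromosome 2 from 181652083 to 181652137, with 79 positive reads and 5 negative strand reads (4.34, 1.77 to 13.8). On chromosome 16, the peak from 98263022 to 98263101, 56 kb from the end, holds 59 positive reads and no negative read, a strand ratio of 6.32 against the floor (lower limit 4.99). Farther in, a peak on chromosome 15 from 103078897 to 103078963, 416 kb from the end, holds 79 positive reads, and a peak on chromosome 2 from 181293933 to 181294046, 454 kb from the end, holds 76. Both have no negative read and a strand ratio of 7.63 against the floor (lower limit 6.05). On chromosome 8, the peak from 131176560 to 131176591 holds 50 positive reads and 3 negative strand reads (4.72, 1.52 to 23.7). Of the 97 autosomal peaks among the 100 best ranks of the list, 7 were terminal (7.22%), and of the 987 among the 1000 best ranks, 22 were (2.23%). Terminal peaks make up 1.39% of autosomal peaks.

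Peaks reached the last kb of the assembly on 2 autosomes. On chromosome 11, next to the peak of 109 reads, a 108 bp peak from 121843251 to 121843358 holds 86 positive reads. On its 2 strands 89 positive stood against 17 negative reads (strand ratio 1.58, 0.931 to 2.83), so its excess over the negative set was not resolved, unlike that of its neighbour. On chromosome 2, a 29 bp peak from 181747938 to 181747966 holds 16 positive and 0 negative reads and has a deposited rank of 30064, near the bottom of the list. Beside it, a 304 bp peak from 181747252 to 181747555 holds 65 positive reads and 10 negative strand reads (1.84, 0.934 to 4.02).

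On 8 autosomes the outermost peak lay within 10 kb of the end. Beside chromosomes 2 and 11, the distance was 2 kb on chromosomes 5 and 13, 3 kb on chromosome 6, 8 kb on chromosome 7 and 9 kb on chromosomes 17 and 18. These peaks were mixed in strength. On chromosome 7 the peak from 152516568 to 152516634 has 56 positive reads and no negative read (5.62 against the floor, lower limit 4.42). On chromosome 13 the peak from 120282286 to 120282314 has 30 positive reads, and its strand windows give a ratio of 0.75 (0.35 to 1.76) from 10 negative reads. On chromosome 5 the peak from 152534953 to 152534982 has 51 positive reads and 9 negative strand reads (1.34, 0.639 to 3.14), and a 185 bp peak only 4 kb from the end, from 152532873 to 152533057, has 64 positive and no negative reads. The other 3 outermost peaks, on chromosomes 6, 17 and 18, have 24 to 30 positive reads and no negative read. Over the remaining 11 autosomes the outermost peak lay 14 to 136 kb from the end, farthest on chromosome 1. None of these 11 peaks has a negative read, where 75.8% of terminal peaks and 81.1% of all autosomal peaks have none. The difference was not tested.

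Set against the negative read set as a whole, terminal peaks did not stand farther above it than other peaks. Over both strands 14024 positive stood against 812 negative reads, which gives a strand ratio of 5.20 (4.84 to 5.59), against 5.72 (5.67 to 5.77) in the other autosomal peaks. The terminal value is the lower one, with intervals that do not overlap, but this depended on the window. In the last 0.5 Mb the terminal value was 5.92 (5.37 to 6.53), the higher one, and in the last 2 Mb it was 5.53 (5.22 to 5.86). Without the last 0.1 Mb it was 5.30 (4.89 to 5.75). Each of these intervals overlaps that of the other autosomal peaks, which was kept from the 1 Mb window. Without chromosome 5 the terminal value is 5.60 (5.18 to 6.06), and without chromosome 11 it is 5.61 (5.20 to 6.07). The 5.72 of the other autosomal peaks still includes these chromosomes and was not recomputed without them. Whether the terminal value stays the lower one with either chromosome left out of all peaks was therefore not tested. Over the other 56 windows of 1 Mb the strand ratio ran from 3.39 to 11.3, and 34 of them reached or passed the last 1 Mb. Among read-rich peaks the ratio was 4.69 (4.06 to 5.43) in terminal peaks and 4.70 (4.56 to 4.84) elsewhere.

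The whole-peak columns hold few negative reads, and they set terminal peaks farther apart from the rest. A whole-peak negative read stood in 5 of 417 terminal peaks (1.20%, 0.390 to 2.78), against 70 of 29523 other autosomal peaks (0.237%, 0.185 to 0.299). Summed over whole peaks, 14083 positive stood against 19 negative reads in terminal peaks, and 892993 against 149 elsewhere. With the same scaling these sums, added after the data were seen, give ratios of 223 (143 to 371) and 1804 (1537 to 2133). The last 0.1 Mb held 16 of the 19 negative reads, 9 of them in the peak of 149 reads on chromosome 7 and 5 in the chromosome 10 peak of 106 reads. Without the last 0.1 Mb the ratio was 1124 (385 to 5451), an interval that overlaps that of the other peaks.

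Negative reads stood in some column for 101 of the 417 terminal peaks (24.2%, 20.2 to 28.6), against a background of 18.9%. The other peaks of the same autosomes would give 80.1 such peaks (19.2%), and 3 of the other 56 windows had a share as high. For the 316 terminal peaks without any negative read (75.8%, background 81.1%), the ratio against the floor had a median of 2.81, from 2.01 to 11.1. The lower limit of the exact interval had a median of 2.14, from 1.49 to 8.91, and lay above 2 in 181 of them. Elsewhere on the autosomes it lay above 2 in 12999 of 23975 such peaks. The medians there were close, 2.06 for the limit and 2.71 for the ratio against the floor. With no negative read, both values restate the positive reads, which are at least 10 on each strand of every listed peak. Of the 101 with negative strand reads, 5 had an interval wholly above 2, 26 an interval wholly under 2, and 70 spanned 2 (4.95%, 25.7% and 69.3%). Among the 5545 such peaks elsewhere on the autosomes the shares were 2.11%, 28.6% and 69.3%. Counting also the peaks without negative reads, whose interval has no upper limit, 186 of 417 (44.6%, background 44.4%) had a strand ratio with its whole interval above 2, and 345 (82.7%, background 85%) above 1. The ratio was 1 or less in 29 terminal peaks (6.95%, background 6.61%), near the share over all autosomal peaks.

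The autosomes differed in this respect. On chromosomes 9, 12 and 18, 0 of 18, 0 of 13 and 0 of 5 terminal peaks had a negative read, against a background of 18.9%. These chromosomes were picked from 19 autosomes as those without a negative read, and their difference from the background was not tested. The lower limits of their summed strand ratios were 41.0, 28.3 and 15.6. With no negative read, these limits follow the positive strand reads, which numbered 504, 348 and 193. On chromosome 16, 701 positive stood against 10 negative strand reads (21.1, 11.4 to 44.2). Chromosome 7, with the highest ratio of terminal to interior density, had a strand ratio of 6.57 (5.10 to 8.60). The lowest ratios were 2.91 (1.97 to 4.47) on chromosome 13, 3.03 (2.53 to 3.65) on chromosome 11 and 3.15 (2.64 to 3.80) on chromosome 5. The crowded ends of chromosomes 5 and 11 thus carried more negative reads for their positive ones than the end of chromosome 7, and these intervals do not overlap that of chromosome 7.

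The 5 terminal peaks with the lowest strand ratios lie on chromosomes 15, 5 and 11, at 302 to 922 kb from the end. On chromosome 15 the peak from 103070618 to 103070646 has 30 positive against 26 negative strand reads, a ratio of 0.35 (0.20 to 0.61). It lies under 10 kb from the peak of 79 reads without any negative read on the same chromosome. The other 4 have ratios from 0.39 to 0.51, and 3 of these 4 have an interval wholly under 1.

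Terminal peaks sat close to one another. A neighbouring peak lay within 10 kb of 208 of 417 (49.9%, 45.0 to 54.8), against a background of 34.9%, where the density of terminal peaks is 1.74 times that of the interior. A neighbour within 1 kb stood beside 48 (11.5%, 8.61 to 15.0), against 6.38% of the other autosomal peaks. When peaks no more than 10 kb apart were joined, the terminal peaks fell into 291 groups, with 209 single peaks, 31 groups of 3 or more and 4 groups of 5 or more. Groups elsewhere on the autosomes are not given for comparison.

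Most peaks stood in a group on chromosome 5 from 151990155 to 152015551, 521 kb from the end, with 6 peaks and a strand ratio of 1.93 (1.28 to 3.01). Chromosome 7 has 2 groups of 5. One from 152470193 to 152485666, 40 kb from the end, holds 409 positive reads over 15.5 kb (5.22, 3.43 to 8.34) and contains 2 of the peaks of 100 or more reads. Its innermost peak, from 152470193 to 152470659, is 467 bp long, the longest terminal peak, and holds 76 positive reads with no negative read (7.63 against the floor, lower limit 6.05). The other, from 152422769 to 152452393, 73 kb from the end, holds 294 positive reads (4.80, 2.98 to 8.22) and contains the peak of 149 reads. On chromosome 15 a group of 5 from 103016109 to 103046554, 449 kb from the end, has 224 positive and 0 negative strand reads, a strand ratio of 22.5 against the floor (lower limit 18.1). A second group on chromosome 15, from 102492572 to 102505676, reaches across the limit of 1 Mb, with 4 terminal peaks and 1 outside (6.66, 3.31 to 15.7). Of the 31 groups of 3 or more, 12 have no negative read. Without groups from elsewhere, whether this is high or low was not tested.

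In shape the terminal peaks resembled the rest. The median length was 55 bp (interquartile range 39 to 80), against 56 bp (38 to 77) elsewhere, and 73 of 417 (17.5%) were 29 to 31 bp long, against a background of 17.7%. The reverse-strand mode lay a median of 50 bp after the forward-strand mode, against 52 bp in the other peaks. The order of the modes was turned around in 34 terminal peaks (8.15%, background 6.85%), and 33 of these 34 were 120 bp or longer. Among peaks of that length, 64.7% (50.1 to 77.6) had the turned order in terminal peaks and 64.6% elsewhere. Length and mode distance are not separate measures. In many peaks with the modes in order they are equal, as in the 120 bp peak of 105 reads on chromosome 7. In the authors' deposited list the false discovery rate was 0.01 or less for 236 terminal peaks (56.6%, background 55.9%).

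The proximal ends gave a comparison with the other end of the same chromosomes. The 1 Mb from the first listed peak of each autosome held 313 peaks, 108 of them on chromosome 11. Without chromosome 11 the counts were 205 proximal and 381 terminal peaks. Terminal windows were the fuller ones on 13 autosomes and the emptier ones on 5, and chromosome 13 had 9 at both ends. This comparison, and the values without chromosome 11, were chosen after the data were seen. Over all autosomes, proximal peaks were read-rich in 50 of 313 cases (16.0%, 12.1 to 20.5), had a strand ratio of 2.25 (2.13 to 2.37) against the terminal 5.20, and had a negative read in 36.4% (31.1 to 42.0) against the terminal 24.2%. Chromosome 11 decided the first and the last of these orders. Without it the read-rich share was 12 of 205 (5.85%) in proximal and 42 of 381 (11.0%) in terminal peaks, where with it the proximal share was the higher one. The share with a negative read was 17.6% in proximal peaks (12.6 to 23.5) and 23.1% in terminal peaks (up to 27.7), again in the other order. For both shares the intervals of the 2 ends overlap without chromosome 11, and the differences themselves were not tested. The strand ratio kept its order, with 4.63 (4.19 to 5.13) in proximal and 5.61 (5.20 to 6.07) in terminal peaks.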

How the data were processed

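The terminal peaks, their limit and the measures described were chosen with earlier results of these data known. The deposited list gives, per the file headers, counts of positive and negative reads, the highest window signal in reads, log2 folds and a false discovery rate, a q-value, for each peak; Delta was not used. As the list holds 2 pooled read sets and no single library, genotypes were compared without a test over replicates. Coordinates are those of mm9, which the submitters' processing notes name. The aligner, the caller of the peaks and the filters were not stated. The factor of 3.32 was solved from the deposited log2 values (140 of 141 solvable entries within 0.001).

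Ratios have exact conditional binomial, shares Clopper-Pearson and numbers of peaks exact Poisson 95% intervals (Python 3.11.15, scipy 1.17.1), tested on simulated data. Peaks without negative reads have a floor of 3 negative reads. Assembly gaps were not taken into account. Peaks named: the 10 best ranks, the outermost of each autosome, the 5 largest groups, the 5 with most reads and no negative read, the 5 lowest ratios, and those at the limit. The 6 peaks of 100 or more reads were named after their values were seen. Alternatives changed the window, the end, the peaks used and the autosomes.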

Additional observations from a re-analysis of the deposited data

How the results depend on the processing

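No paired analysis was possible because the list pools the libraries and holds no value for a single one. Of 210 recomputed values, 181 stayed within the interval of the value reported and 29 moved outside it, among them 3 proximal values without chromosome 11. Most of the 210 came from leaving out 1 autosome, which keeps most peaks, so staying within the interval was nearly fixed for them. The ratio of terminal to interior density stayed above 1 under every alternative run, at 1.97 for 0.5 Mb and 1.51 for 2 Mb. The read-rich share was 16.5% in 0.5 Mb and 7.63% in 2 Mb. It was 19.6% among the better-ranked 50% of peaks (7.54% elsewhere) and 17.8% at a false discovery rate of 0.01 or less (6.74% elsewhere). With a minimum of 40 reads it was 21.8% (13.0% elsewhere), and with 75 reads 3.36% (0.362% elsewhere). In alternatives chosen after the data were seen, it was 7.02% without the last 0.1 Mb and 7.59% among peaks without negative reads (2.96% elsewhere). The strand ratio was 5.92 in 0.5 Mb, above the 5.72 of the other autosomal peaks in the main setting, with overlapping intervals. It was 5.65 in the better-ranked 50%, 5.60 without chromosome 5 and 5.61 without chromosome 11. The share with a neighbour within 10 kb was 43.7% in 2 Mb, 32.7% in the better-ranked 50% and 36.0% at the lower false discovery rate. Both filters leave fewer peaks listed. At these settings no such share was computed for the other peaks, so whether the excess over them holds was not tested. For a neighbour within 1 kb the share was 11.5%. Median positive reads were 35 and 34 under those same 2 filters (32 and 31 elsewhere), median lengths 61 and 59.5 bp, and median distances between strand modes 55 and 54 bp. Terminal peaks with a strand ratio interval wholly above 2, those without negative reads included, numbered 186, and 345 lay wholly above 1. The 101 terminal peaks with negative strand reads hold a median of 7 such reads, and 70 of them have an interval that spans 2.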
